A study of Mus musculus with 18 samples.

Results

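MTOB (4-methylthio-2-oxobutanoate), a substrate analogue of the C-terminal binding proteins CTBP1 and CTBP2, was compared with vehicle in wildtype J774.1 cells, a mouse macrophage cell line. The comparison takes 6 of the 18 RNA-seq samples of the study, chosen by their labels. These are 3 samples of wildtype cells given 1.5 mM MTOB for 4 h and 3 samples of wildtype cells given vehicle. The study set MTOB and a second inhibitor, 4-Cl-HIPP, beside vehicle in wildtype and in Ctbp1/2 double knockout (dKO) cells to ask how specific the inhibitors are. The dKO line was made by CRISPR in the same cell line, with 3 vehicle samples and 3 samples given 1.5 mM MTOB for 4 h, and 4-Cl-HIPP was given at 0.25 mM for 4 h. The vehicle is named as PBS/DMSO, where MTOB was dissolved in PBS and 4-Cl-HIPP in DMSO, and whether the MTOB wells also held DMSO is not stated in the sources used here, so that a solvent difference and MTOB cannot be told apart. Clones grown after electroporation were classed as wildtype or knockout, and which wildtype line was sequenced is not stated in the sources used here, so that differences between the lines other than the loss of CTBPs cannot be told apart from that loss.

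MTOB is the keto acid of methionine and the last intermediate of the methionine salvage pathway, in which the carbon skeleton of methylthioadenosine is turned back into methionine. CTBPs are transcriptional corepressors that bind NAD(H) and carry a dehydrogenase fold, and MTOB occupies the substrate pocket of that fold. Macrophages sense microbial products, cytokines and oxidants, and their best known transcriptional programmes run through NF-kB, the interferon regulatory factors and STATs, AP-1 and the antioxidant factor NRF2.

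Levels are in TPM, a transcript abundance scaled to the same total in every sample, as the authors derived it from Salmon estimates, with 3 samples in each group. The number of reads behind a TPM value is unknown here. Over the tested genes the log2(TPM + 1) profiles correlated at 0.985 to 0.986 within vehicle, 0.985 to 0.986 within MTOB and 0.982 to 0.984 between the groups. Transcripts of mitochondrial genes took 9.21 to 9.66% of the TPM in vehicle and 8.99 to 9.44% with MTOB. All 10 macrophage markers were measured, and their summed level was 3199.6 to 3283 TPM in vehicle and 3682 to 3860.2 TPM with MTOB. Lyz2, lysozyme, lay at 521, 534 and 506 TPM in vehicle and at 687, 672 and 660.1 TPM with MTOB. None of the 7 neutrophil markers was among the tested genes, and the summed level stayed at or below 2.07 TPM for the T and NK cell markers, at or below 0.264 TPM for the endothelial markers and at or below 0.215 TPM for the fibroblast and epithelial markers. Among the B cell markers Ighm lay at 127, 128 and 121 TPM in vehicle and 143, 129 and 127 TPM with MTOB, while Cd79a and Cd79b were at or near 0.

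The transcripts of the proteins that MTOB is meant to bind did not pass the test in wildtype cells. Ctbp1 lay at 212, 238 and 204 TPM in vehicle and 192, 170.1 and 199 TPM with MTOB, a log2 fold change of -0.22 ± 0.13 by limma (adjusted p = 0.396). Ctbp2 lay at 87.8, 93.2 and 96.9 TPM in vehicle and 93.03, 92.1 and 95.5 TPM with MTOB, a log2 fold change of 0.01 ± 0.06 by limma (adjusted p = 0.952). The groups overlapped for Ctbp2, and for Ctbp1 all 3 MTOB samples lay below the vehicle samples.

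MTOB changed few of the measured genes by more than 1.5-fold, and most of those that it changed were higher. Each gene was tested with limma on log2(TPM + 1) and its p adjusted by the Benjamini-Hochberg method over all 16383 tested genes. A value after ± beside a log2 fold change is its standard error (SE). A gene is named called where the adjusted p was below 0.05 and the change exceeded 1.5-fold, and it is said to have risen or fallen where the adjusted p was below 0.05. Of the tested genes 255 were called higher, a percentage of 1.56, and 74 were called lower, a percentage of 0.452. On the adjusted p alone 622 genes rose (3.8%) and 567 fell (3.46%), and the unadjusted p was below 0.05 for 18.4% of the tested genes. The median log2 fold change over all tested genes was -0.01. In bulk RNA a change in the share of cells in a state and a change in RNA per cell cannot be told apart. With the samples rescaled by median ratios 81.2% of the called genes were higher, against 77.5% as deposited. With a pseudocount of 5 in place of 1 there were 185 called genes, 167 higher and 18 lower, and when limma was fitted to the 6 samples alone 190 were called higher and 42 lower. More than 2-fold changes were seen for 94 genes called higher and 13 called lower, and more than 4-fold changes for 12 and 2. Among the called genes, all 3 MTOB samples lay above all 3 vehicle samples for 254 of the 255 higher genes and below them for all 74 lower genes, where the same holds for 10.6% and 12% of all tested genes.

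**Figure D1:**
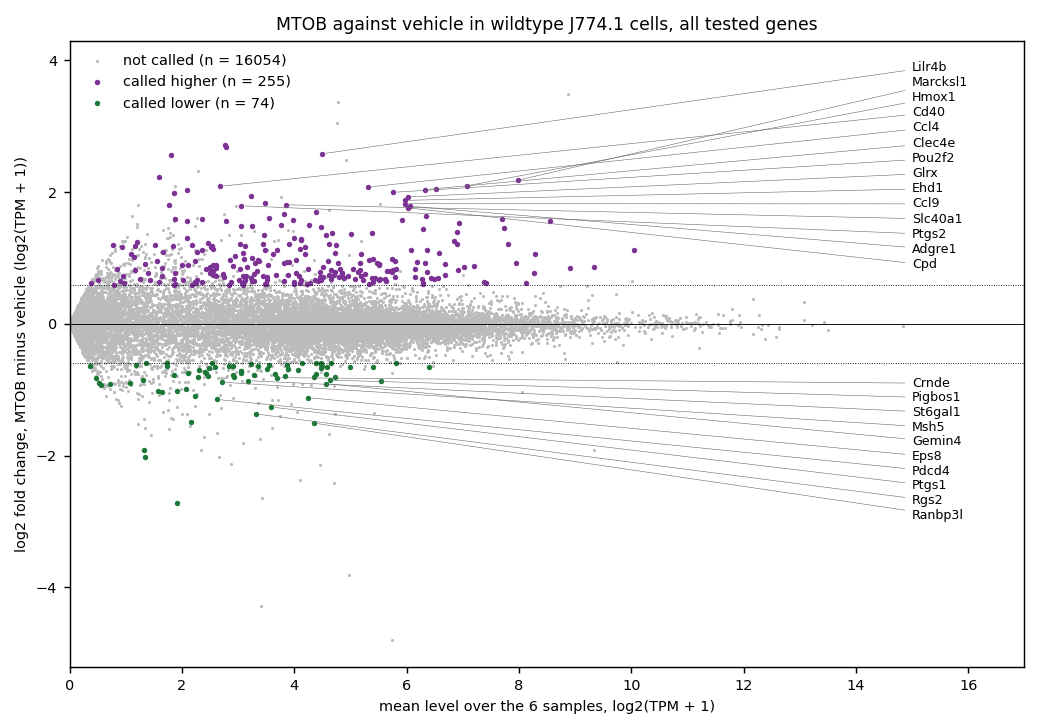
Log2 fold change (MTOB minus vehicle in wildtype cells, log2(TPM + 1) scale) against the mean level over the 6 samples for the 16383 tested genes, with genes called higher in purple and called lower in green. The dotted lines mark 1.5-fold, and the 255 purple points outnumber the 74 green points.

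As a description, the genes called higher were more often protein coding than the tested genes. Of the genes called higher 93.3% were annotated as protein coding, against 75.7% of those called lower and 75.3% of all tested genes. Long non-coding RNAs made up 3.54% of those called higher, 12.2% of those called lower and 9.22% of all tested genes. The median level was 14.9 TPM for genes called higher, 7.27 TPM for genes called lower and 10.3 TPM for all tested genes. Below 5 TPM, where the pseudocount weighs on a fold change, lay 61 of the genes called higher and 29 of those called lower.

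The leading genes were taken from called genes with a name other than a clone name, a mean of 5 TPM or more and no overlap between the groups. Among them Lilr4b, Marcksl1 and Hmox1 had the largest log2 fold changes upward. Lilr4b, an immunoglobulin-like receptor of myeloid cells (chromosome 10, 51356728 to 51362799, GRCm39), lay at 6.67, 4.25 and 5.62 TPM in vehicle and 35.5, 37.5 and 39.9 TPM with MTOB, a log2 fold change of 2.58 ± 0.23 by limma (adjusted p = 3.66e-06). Marcksl1, an actin-binding membrane protein of the MARCKS family, lay at 89.5, 85.9 and 94.3 TPM in vehicle and 425, 418 and 390.4 TPM with MTOB, a log2 fold change of 2.18 ± 0.06 by limma (adjusted p = 7.92e-12). Hmox1, the heme oxygenase that breaks heme into biliverdin, iron and carbon monoxide (chromosome 8, 75820241 to 75827217, GRCm39), lay at 48.1, 49.7 and 51.5 TPM in vehicle and 214, 231 and 204 TPM with MTOB, a log2 fold change of 2.10 ± 0.07 by limma (adjusted p = 3.35e-11). For each of these genes the lowest MTOB sample stood more than 3 times as high as the highest vehicle sample. Clec4e, which encodes the C-type lectin receptor Mincle, went from 28.7, 33.4 and 28.7 TPM to 135, 125 and 122 TPM with a log2 fold change of 2.04. Pou2f2, the transcription factor OCT2, went from 22.3, 20.9 and 18.9 TPM to 88.7, 83.5 and 84.98 TPM with a log2 fold change of 2.00. In both genes the spread within a group was narrow against the gap between groups. Glrx, the cytosolic glutaredoxin that removes glutathione from proteins, went from 27.6, 28.4 and 22.1 TPM to 102, 102 and 100.03 TPM with a log2 fold change of 1.93.

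The other genes of this leading set varied more among themselves in their spread. Cd40, a costimulatory receptor of the TNF receptor family, lay at 1.71, 2.37 and 0.494 TPM in vehicle and 9.68, 7.18 and 11.03 TPM with MTOB, and its log2 fold change of 2.09 was 2.74 with a pseudocount of 0.1 and 1.13 with one of 5. Ccl9, a chemokine, lay at 27.7, 20.5 and 29.9 TPM in vehicle and at 121, 109 and 62.6 TPM with MTOB, and MTOB replicate 3 was the low one, still above every vehicle sample. Ptgs2, the inducible cyclooxygenase, lay at 3.88, 2.26 and 2.16 TPM in vehicle and 10.7, 13.7 and 11.1 TPM with MTOB, and its log2 fold change of 1.79 was 2.10 with a pseudocount of 0.1 and 1.12 with one of 5. That the groups of these 3 genes did not overlap was a condition of their selection. Adgre1, the macrophage receptor F4/80, went from 27.5, 24.6 and 35.3 TPM to 98.2, 107 and 101 TPM with a log2 fold change of 1.79. Slc40a1, the iron exporter ferroportin, went from 5.83, 5.22 and 5.08 TPM to 20.2, 22.7 and 21.1 TPM with a log2 fold change of 1.81. Cpd, a membrane carboxypeptidase, went from 29.4, 27.8 and 28.3 TPM to 95.6, 97.7 and 104 TPM, and its log2 fold change of 1.76 ± 0.04 by limma (adjusted p = 9.62e-13) had the smallest standard error of the set. Ccl4, a chemokine, and Ehd1, a regulator of endocytic recycling, had log2 fold changes of 2.08 and 1.88.

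Under the same limits the genes called lower changed less. Ranbp3l stood first among them at 29.6, 26.7 and 30.9 TPM in vehicle and 9.46, 10.6 and 8.72 TPM with MTOB, a log2 fold change of -1.50 ± 0.13 by limma (adjusted p = 2.59e-06). Rgs2, which shortens signalling by Gq-coupled receptors, lay at 10.4, 15.8 and 13.8 TPM in vehicle and 3.49, 5.85 and 4.38 TPM with MTOB, a log2 fold change of -1.37 ± 0.15 by limma (adjusted p = 3.53e-05). Ptgs1, the constitutive cyclooxygenase, lay at 14.3, 15.8 and 17.97 TPM in vehicle and 6.29, 5.95 and 5.99 TPM with MTOB, a log2 fold change of -1.26 ± 0.07 by limma (adjusted p = 1.52e-08). That every MTOB sample lay below every vehicle sample in these 3 genes was a condition of their selection. Eps8, an actin-capping adaptor, fell with a log2 fold change of -1.12, and Pigbos1, a mitochondrial outer membrane microprotein, with one of -0.85. Pdcd4, an inhibitor of translation initiation, fell with a log2 fold change of -1.15 that was -1.38 with a pseudocount of 0.1 and -0.67 with one of 5, and Msh5, a meiotic MutS homologue, with one of -0.88 that was -1.04 with a pseudocount of 0.1 and -0.54 with one of 5. The calls of Gemin4, St6gal1 and Crnde were lost in several of the fits that left out 1 library. Gemin4, a component of the SMN complex, lay at 26.6, 34.2 and 27.9 TPM in vehicle and 18.3, 10.5 and 18.2 TPM with MTOB, and its call was lost without vehicle replicate 2 or 3 or MTOB replicate 2 (adjusted p between 0.0621 and 0.129). St6gal1, a sialyltransferase, lay at 10.2, 10.4 and 10.3 TPM in vehicle and 3.82, 3.73 and 9.696 TPM with MTOB, where MTOB replicate 3 stood near the vehicle samples, and its call was lost without vehicle replicate 1, 2 or 3 or MTOB replicate 1 or 2 (adjusted p between 0.0568 and 0.105). The long non-coding RNA Crnde lay at 15.6, 16.4 and 14.1 TPM in vehicle and 11.3, 6.89 and 7.23 TPM with MTOB, and its call was lost without vehicle replicate 1, 2 or 3 or MTOB replicate 2 or 3 (adjusted p between 0.0562 and 0.121). When limma was fitted to the 6 samples alone the adjusted p was 0.124 for Gemin4, 0.279 for St6gal1 and 0.109 for Crnde.

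**Figure D2:**
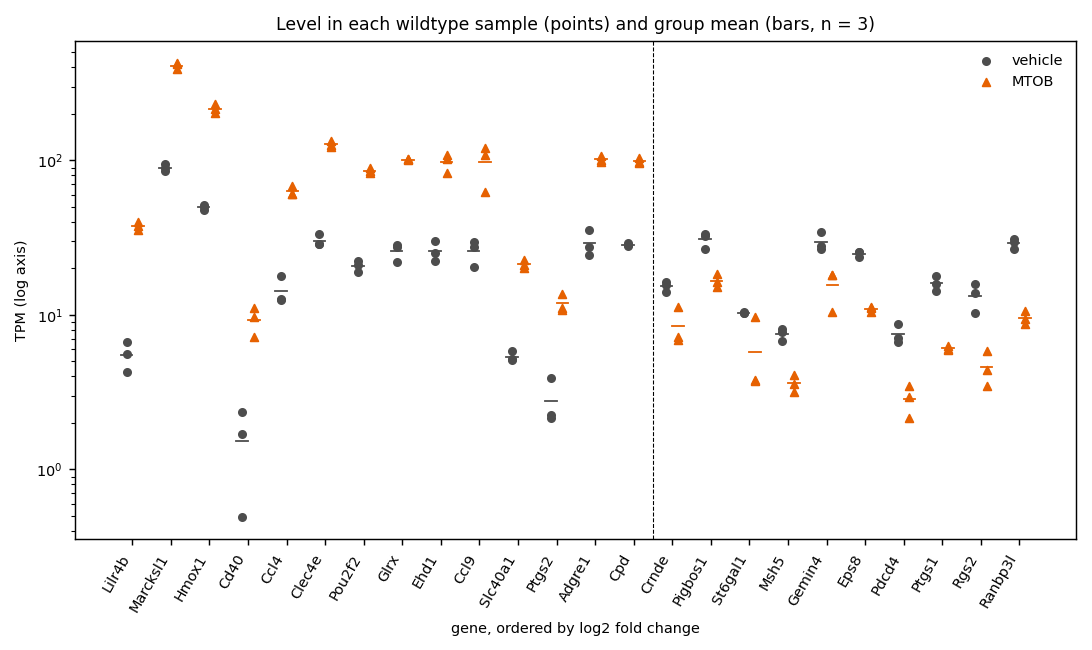
TPM on a log axis in each vehicle sample (grey circles) and each MTOB sample (orange triangles) of wildtype cells, with bars at the group means (n = 3), for 14 genes called higher and the 10 called lower among those with the largest changes at 5 TPM or more. The dashed line separates both directions. The circles and triangles of a gene do not overlap, which was a condition of the selection.

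By the difference in mean TPM, Marcksl1 and 7 further genes, all called higher, stood first among the called genes. Actg1, cytoplasmic gamma-actin, lay at 653, 685 and 654 TPM in vehicle and 1499, 1433 and 1416 TPM with MTOB, a log2 fold change of 1.12 ± 0.03 by limma (adjusted p = 6.78e-12). Cd14, the co-receptor for lipopolysaccharide, lay at 462, 439.8 and 473 TPM in vehicle and 857, 824 and 819.7 TPM with MTOB, a log2 fold change of 0.86 ± 0.07 by limma (adjusted p = 1.18e-06). Spp1, the secreted glycoprotein osteopontin, lay at 206, 193 and 168 TPM in vehicle and 572, 595 and 519.9 TPM with MTOB, a log2 fold change of 1.57 ± 0.07 by limma (adjusted p = 1.08e-09). The groups did not overlap for these genes, as for 254 of the 255 genes called higher. Esd, esterase D, went from 335, 359.8 and 334 TPM to 634, 597 and 633 TPM, Stap1, a signalling adaptor, from 108, 102 and 95.98 TPM to 336, 295 and 303 TPM, and Glipr1 from 108, 122 and 111 TPM to 315, 324 and 298 TPM. Srgn, the core protein serglycin of granule proteoglycans, went from 193, 196 and 213 TPM to 442, 417 and 406 TPM. Actin genes have near-identical paralogues and pseudogenes, so that the split of reads among them is uncertain.

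Most of the measured NRF2 target genes rose with MTOB. NRF2 is held back by KEAP1 until oxidants or electrophiles modify KEAP1, and it then acts through antioxidant response elements. Of 21 tested NRF2 targets and regulators 8 were called higher and 0 lower, 12 rose on the adjusted p, and the median log2 fold change was 0.41. Of all tested genes 1.56% were called higher, 0.452% were called lower and 3.8% rose. This list and the others of this report were chosen, with their members, when earlier results of these data were known. Their counts are therefore a description. Besides Hmox1, the cystine importer Slc7a11 lay at 4.94, 5.11 and 4.38 TPM in vehicle and 15.3, 17.5 and 17.1 TPM with MTOB, a log2 fold change of 1.60 ± 0.10 by limma (adjusted p = 3.09e-08). Sqstm1, the autophagy receptor p62, lay at 136, 138 and 127 TPM in vehicle and 299.6, 328 and 303 TPM with MTOB, a log2 fold change of 1.21 ± 0.07 by limma (adjusted p = 1.52e-08). Txnrd1, cytosolic thioredoxin reductase, lay at 166, 173 and 170.2 TPM in vehicle and 329.98, 319 and 319.8 TPM with MTOB, a log2 fold change of 0.93 ± 0.05 by limma (adjusted p = 4.32e-09). The groups did not overlap for any of these genes, as for 254 of the 255 genes called higher. Srxn1, sulfiredoxin, and Abcc1, an exporter of glutathione conjugates, had log2 fold changes of 0.99 and 0.83. Osgin1 had one of 1.49 that was 1.72 with a pseudocount of 0.1 and 0.96 with one of 5. Gclm, the modifier subunit of glutamate-cysteine ligase, was called at 0.63 and its call was lost without vehicle replicate 3, where the change stayed below 1.5-fold at a log2 fold change of 0.44. The call of Gclm was also lost when limma was fitted to the 6 samples alone (adjusted p = 0.138). Its catalytic partner Gclc rose by less, with a log2 fold change of 0.41 ± 0.05 by limma (adjusted p = 4.18e-05). Nqo1, another well known target, lay at 0, 0.296 and 0 TPM in vehicle and 0.296, 0.154 and 0.313 TPM with MTOB and did not pass the test, and neither did Nfe2l2, which encodes NRF2, at -0.03, or Keap1 at -0.03.

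Upstream stretches of 5 called NRF2 targets show where the core letters of the antioxidant response element lie. The letters TGACNNNGC were searched on both strands of RefSeq promoter windows on GRCm38.p6, and TGAGNNNGC was added after the sequences had been seen. The first occurs in the window of 14.0% and the second in that of 19.8% of all 27025 genes with a window of 250 bases before to 50 after the start, and no string matches both at 1 place on 1 strand. A window was at hand for 6 of the 8 called genes and for 10437 of the 16358 tested symbols, too few to compare shares. The stretches come from chr3:122245403-122245451 on the plus strand for Gclm, chr10:82859094-82859142 on the plus strand for Txnrd1, chr3:50443682-50443730 on the minus strand for Slc7a11, chr2:152105459-152105507 on the plus strand for Srxn1 and chr8:119437028-119437076 on the plus strand for Osgin1, all read 5′ to 3′ on the strand of the gene. Capitals mark the matched letters, which end 125, 83, 88, 36 and 90 bases before the start.
Gclm: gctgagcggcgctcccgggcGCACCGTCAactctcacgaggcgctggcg
Txnrd1: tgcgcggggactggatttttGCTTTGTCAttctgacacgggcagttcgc
Slc7a11: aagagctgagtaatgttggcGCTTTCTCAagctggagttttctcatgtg
Srxn1: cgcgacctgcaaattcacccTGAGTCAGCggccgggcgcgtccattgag
Osgin1: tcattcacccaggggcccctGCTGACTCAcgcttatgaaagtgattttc
In Srxn1 the match reads on the strand of the gene, and in the other 4 genes on the opposite strand. Srxn1 holds a second match, not shown, that ends 149 bases before the start. A match is a description of these letters and no evidence of binding.

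Neighbouring pathways of redox and iron handling changed in part. Among 17 glutaredoxins, thioredoxins, peroxiredoxins and related enzymes, Glrx and the glutathione peroxidase Gpx1 were called higher, and Gpx1 lay at 228, 220.1 and 226 TPM in vehicle and 389, 384 and 385 TPM with MTOB, a log2 fold change of 0.78 ± 0.06 by limma (adjusted p = 5.23e-07). None of the 12 NADPH and pentose phosphate enzymes was called, while Nadk, Me1, Pgd and G6pdx rose by log2 fold changes of 0.48, 0.36, 0.28 and 0.22. Idh1 and Nadk2 fell, with log2 fold changes of -0.49 and -0.52. Of 16 iron and heme genes 4 were called higher and 1 lower, where 1.56% and 0.452% of all tested genes were. Both ferritin subunits rose without reaching 1.5-fold. Ftl1, the light chain, lay at 3888, 4090.4 and 3937 TPM in vehicle and 5134, 5338 and 5078 TPM with MTOB, and Fth1, the heavy chain, at 7704, 7918 and 7366 TPM and 9413, 9709.5 and 9749.8 TPM. Slc11a2, an importer of divalent metals, was called at a log2 fold change of 0.68, and Tfrc, the transferrin receptor, did not pass the test at 0.20. Apart from that of Slc40a1, the other calls were lost in some of the fits that left out 1 library. That of Alas1, the first enzyme of heme synthesis, was lost without vehicle replicate 2 or 3 or MTOB replicate 1, 2 or 3 (adjusted p between 0.0748 and 0.193). That of Slc48a1, a heme transporter, was lost without vehicle replicate 1 or MTOB replicate 2, where the change stayed below 1.5-fold at a log2 fold change of 0.55 and 0.57, and that of Hfe, the gene called lower, without vehicle replicate 1 or MTOB replicate 1 or 2 (adjusted p between 0.0552 and 0.0628).

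Interferon-stimulated genes were higher in part and with wider spreads. Type I interferon acts through STAT and IRF proteins, which bind the interferon-stimulated response element of genes that restrict viruses. Of 35 tested interferon effectors 9 were called higher and 0 lower, 12 rose on the adjusted p, and the median log2 fold change was 0.47. Of all tested genes 1.56% were called higher, 0.452% were called lower and 3.8% rose. Usp18, the protease that removes ISG15 and limits interferon signalling, lay at 7.47, 6.32 and 6.88 TPM in vehicle and 26.9, 22.1 and 19.3 TPM with MTOB, a log2 fold change of 1.58 ± 0.14 by limma (adjusted p = 3.24e-06). Xaf1, a pro-apoptotic factor, lay at 9.12, 6.42 and 8.52 TPM in vehicle and 18.7, 24.1 and 17.1 TPM with MTOB, a log2 fold change of 1.22 ± 0.22 by limma (adjusted p = 0.00251). Parp14, an ADP-ribosyltransferase, lay at 4.96, 4.35 and 5.005 TPM in vehicle and 11.3, 10.9 and 9.198 TPM with MTOB, a log2 fold change of 0.99 ± 0.13 by limma (adjusted p = 0.000185). The MTOB samples of these genes lay above the vehicle samples without overlap, as for 254 of the 255 genes called higher. Isg15, the ubiquitin-like modifier, lay at 7.07, 7.72 and 2.51 TPM in vehicle and 15.9, 16.9 and 9.04 TPM with MTOB, and its call was lost without vehicle replicate 3 or MTOB replicate 1 or 2 (adjusted p between 0.132 and 0.173). Trim30a, Oas2, the RNA-activated kinase Eif2ak2 and Oas3 were called at log2 fold changes of 0.86, 0.83, 0.73 and 0.72, and Slfn5 at one of 1.18 that was 1.43 with a pseudocount of 0.1 and 0.67 with one of 5. Genes of the Oas family resemble each other, so that their reads may be split. Several effectors well known for their induction did not pass the test, among them Mx1 at 1.18 ± 0.42, Ifit3 at 0.79 ± 0.24 and Rsad2 at 0.08 ± 0.17 (log2 fold change and SE). Among 29 sensors, STATs and IRFs 4 were called higher, including the transcription factors Irf7 at a log2 fold change of 1.13 ± 0.16 by limma (adjusted p = 0.00032) and Irf8 at 0.90 ± 0.07 by limma (adjusted p = 6.09e-07) and the RNA sensor Ddx58 at 0.97 ± 0.12 by limma (adjusted p = 0.000103). Stat2 at 0.33 did not pass the test, and the receptor subunits Ifnar2 and Ifngr1 fell, both with log2 fold changes of -0.36. Irgm1, a GTPase of cell-autonomous immunity, was the highest of 3 called among 15 interferon-inducible GTPases, with a log2 fold change of 1.07 ± 0.14 by limma (adjusted p = 0.000103). The call of the sensor Dhx58 was lost without vehicle replicate 1 or 3 or MTOB replicate 1, 2 or 3 (adjusted p between 0.0974 and 0.179). Those of the GTPases Igtp and Irgm2 were lost, for Igtp without vehicle replicate 2 or 3 or MTOB replicate 1 or 2 (adjusted p between 0.051 and 0.0865) and for Irgm2 without vehicle replicate 2 or 3 or MTOB replicate 2 or 3 (adjusted p between 0.0651 and 0.0871).

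The core letters of the interferon-stimulated response element, GAAA and GAAA with any 2 letters between them, occur in the windows of 5 called effectors, in 4 of them upstream of the start. The fifth is Eif2ak2, where the match lies after the start and is not shown. Searched on both strands, they occur in the window of 3.99% of all 27025 genes with one. A window was at hand for 6 of the 9 called effectors and for 25 of the 35 tested, too few to compare shares. The stretches come from GRCm38.p6, at chr4:156200855-156200916 on the minus strand for Isg15, chr5:120777705-120777754 on the minus strand for Oas3, chr7:104465200-104465249 on the minus strand for Trim30a and chr11:82951927-82951976 on the plus strand for Slfn5. They read 5′ to 3′ on the strand of the gene, and capitals mark the matched letters.
Isg15: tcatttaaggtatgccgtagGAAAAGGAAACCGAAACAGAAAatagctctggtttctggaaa
Oas3: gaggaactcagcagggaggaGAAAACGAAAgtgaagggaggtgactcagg
Trim30a: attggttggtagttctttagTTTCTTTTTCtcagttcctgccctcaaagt
Slfn5: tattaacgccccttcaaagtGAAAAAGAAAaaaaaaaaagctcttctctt
The Isg15 stretch holds 3 overlapping matches, and Trim30a reads on the opposite strand.

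Genes of the NF-kB pathway rose, and no subunit of the factor was called. NF-kB induces inhibitors of its own pathway together with cytokines and chemokines. Of 21 subunits and feedback genes 7 were called higher and 0 lower, 12 rose and 1 fell on the adjusted p, and the median log2 fold change was 0.36. Among all tested genes 1.56% were called higher and 0.452% lower, while 3.8% rose and 3.46% fell. Ikbke, the kinase IKK-epsilon, lay at 4.94, 7.41 and 6.13 TPM in vehicle and 16.6, 19.9 and 20.6 TPM with MTOB, a log2 fold change of 1.50 ± 0.16 by limma (adjusted p = 2.55e-05). Traf1, a TNF receptor adaptor, lay at 10.1, 12.1 and 10.1 TPM in vehicle and 23.7, 26.4 and 20.8 TPM with MTOB, a log2 fold change of 1.06 ± 0.12 by limma (adjusted p = 4.05e-05). Tnip1, an inhibitor that binds A20, lay at 38.2, 34.2 and 37.8 TPM in vehicle and 63.6, 61.5 and 70.3 TPM with MTOB, a log2 fold change of 0.81 ± 0.09 by limma (adjusted p = 2.36e-05). All 3 were separated between groups, as were 254 of the 255 genes called higher. Nfkbia, the inhibitor IkB-alpha, and the precursor subunits Nfkb1 and Nfkb2 rose by log2 fold changes of 0.41, 0.35 and 0.27, and Rela, Rel and Relb at -0.09, 0.08 and 0.28 did not pass the test. The deubiquitinase Cyld fell, with a log2 fold change of -0.25. Zc3h12a, the RNase Regnase-1, was called at 0.70, and its call was lost when any 1 of the 6 libraries was left out, with adjusted p between 0.0833 and 0.128. That of Nfkbiz, a nuclear IkB protein, was lost without vehicle replicate 1 or MTOB replicate 2 or 3 (adjusted p between 0.0635 and 0.0755).

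Chemokine genes were called higher in 5 of 16 cases and lower in none, against 1.56% and 0.452% of all tested genes. The CC chemokines Ccl3 and Ccl4, which lie side by side on chromosome 11, lay at 46.1, 32.99 and 37.4 TPM and 12.5, 12.7 and 17.8 TPM in vehicle and at 122, 123 and 123 TPM and 68.4, 60.6 and 60.4 TPM with MTOB. Ccl5 lay at 4.19, 3.74 and 3.82 TPM in vehicle and 9.53, 17.1 and 12.8 TPM with MTOB, a log2 fold change of 1.49 ± 0.30 by limma (adjusted p = 0.00563), and next to it lies Ccl9. Cxcl16 lay at 71.03, 68.6 and 71.2 TPM in vehicle and 136, 137 and 127 TPM with MTOB, a log2 fold change of 0.91 ± 0.05 by limma (adjusted p = 5.62e-09). These called chemokines did not overlap between groups, as held for 254 of the 255 genes called higher. Cxcl2 at 1.13 ± 0.37 and Cxcl10 at 0.73 ± 0.30 (log2 fold change and SE) did not pass the test. Of 14 macrophage cytokines only Tnf was called, at 73.6, 62.2 and 60.05 TPM in vehicle and 174, 171 and 171 TPM with MTOB, a log2 fold change of 1.39 ± 0.08 by limma (adjusted p = 1.65e-08), and Tgfb1 rose at 0.46. Among 17 genes of Toll-like receptor signalling Irak2 was called at a log2 fold change of 1.28, Tlr2 and Myd88 rose at 0.58 and 0.35, and Tlr4 fell at -0.32.

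Inhibitory and pattern receptors of the cell surface changed in both directions. Of 18 immune checkpoint and inhibitory receptor genes 6 were called higher and 1 lower, where 1.56% and 0.452% of all tested genes were. Pdcd1, which encodes PD-1, lay at 9.396, 8.68 and 8.91 TPM in vehicle and 27.9, 26.4 and 27.4 TPM with MTOB, a log2 fold change of 1.50 ± 0.06 by limma (adjusted p = 6.09e-10). Fcgr2b, the inhibitory Fc receptor, lay at 8.68, 10.5 and 8.26 TPM in vehicle and 26.6, 22.1 and 22.1 TPM with MTOB, a log2 fold change of 1.28 ± 0.16 by limma (adjusted p = 9.69e-05). Lilrb4a, the neighbour of Lilr4b on chromosome 10, lay at 20.01, 16.5 and 13.7 TPM in vehicle and 51.9, 50.4 and 33.5 TPM with MTOB, a log2 fold change of 1.37 ± 0.21 by limma (adjusted p = 0.000581). The sequences of Lilrb4a and Lilr4b are alike, so that reads may be split between them. Siglece, a sialic acid receptor, was called at a log2 fold change of 1.00. Havcr2, which encodes TIM-3, was called lower at -0.71, a log2 fold change that was -0.81 with a pseudocount of 0.1 and -0.47 with one of 5. Its call was lost without MTOB replicate 1, where the change stayed below 1.5-fold at a log2 fold change of -0.55, and when limma was fitted to the 6 samples alone (adjusted p = 0.126). The call of Lair1, a collagen receptor, was lost without vehicle replicate 1 or 2 or MTOB replicate 1 or 2 (adjusted p between 0.0948 and 0.126). Of 21 Fc, complement and scavenger receptor genes 5 were called higher and 1 lower. They included Clec4d, the partner and chromosome 6 neighbour of Clec4e, at 102, 97.1 and 111 TPM in vehicle and 196, 197 and 178 TPM with MTOB. The calls of Cd36, a fatty acid and lipoprotein receptor, and of Fcgr3, the gene called lower, were lost, for Cd36 without vehicle replicate 1 or 2 or MTOB replicate 1, 2 or 3 (adjusted p between 0.0745 and 0.153) and for Fcgr3 without vehicle replicate 1 or 2 or MTOB replicate 1 or 3 (adjusted p between 0.0936 and 0.132). Trem2, a lipid receptor of macrophages, fell with a log2 fold change of -0.36 ± 0.06 by limma (adjusted p = 0.00114).

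Genes of signal feedback and transcription factors were called higher in several families. Of 19 genes of ERK feedback 6 were called higher and 0 lower, where 1.56% and 0.452% of all tested genes were. Ets2, a transcription factor downstream of ERK, lay at 49.6, 48.5 and 53.8 TPM in vehicle and 110.2, 111 and 112 TPM with MTOB, a log2 fold change of 1.12 ± 0.07 by limma (adjusted p = 9.93e-08). Ier3 lay at 9.48, 6.84 and 8.14 TPM in vehicle and 18.9, 24.5 and 21.6 TPM with MTOB, a log2 fold change of 1.31 ± 0.17 by limma (adjusted p = 0.000129). Dusp4, a phosphatase of ERK, was called at 0.96, while Dusp6 and Dusp1 at 0.06 and -0.17 did not pass the test. The calls of Dusp2 and Phlda1 were lost, for Dusp2 without MTOB replicate 1, where the change stayed below 1.5-fold at a log2 fold change of 0.57 and for Phlda1 without vehicle replicate 2 or MTOB replicate 1 or 2 (adjusted p between 0.0521 and 0.0588). Among 19 AP-1 and EGR genes Fosl1 and Maff were called, Fosl1 at 4.59, 6.97 and 5.79 TPM in vehicle and 18.8, 19.7 and 22.7 TPM with MTOB, and Junb rose at a log2 fold change of 0.44. Fos at 0.19 and Egr1 at 0.14 did not pass the test. Of 17 macrophage lineage transcription factors 4 were called higher, led by Pou2f2, and the myeloid master factor Spi1 at 0.22 did not pass the test. The calls of Maff, Cebpa and Nfil3 were lost, for Maff without vehicle replicate 1 (adjusted p = 0.0621), for Cebpa without vehicle replicate 3 or MTOB replicate 2, where the change stayed below 1.5-fold at a log2 fold change of 0.52 and 0.55 and for Nfil3 without vehicle replicate 1 or 2 or MTOB replicate 1 or 2 (adjusted p between 0.0526 and 0.0985). Of 15 BCL2 family genes 3 were called higher. Bmf, a BH3-only protein, lay at 2.58, 2.44 and 2.31 TPM in vehicle and 10.7, 7.59 and 9.48 TPM with MTOB, and its log2 fold change of 1.56 was 1.86 with a pseudocount of 0.1 and 0.93 with one of 5. The others were Bcl2a1b and Bcl2a1d, which are near-identical copies, and Mcl1 rose at 0.34. Acod1, which makes itaconate, and Arg2, arginase 2, were called from levels of 0.532, 0.744 and 1.26 TPM and 0.351, 0.164 and 0 TPM in vehicle to 4.53, 4.22 and 4.73 TPM and 1.97, 1.19 and 1.73 TPM with MTOB. The log2 fold change of Acod1 was 2.35 with a pseudocount of 0.1 and 0.70 with one of 5, and that of Arg2 2.89 with a pseudocount of 0.1 and 0.36 with one of 5.

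Actin and proteoglycan genes rose in part. Over all tested genes 1.56% were called higher, 3.8% rose and 3.46% fell. Of 25 actin cytoskeleton genes Marcksl1, Actg1 and Zyx were called higher, 11 rose on the adjusted p and none fell, and Actb lay at 3166, 3348 and 3366 TPM in vehicle and 3805, 3955 and 3764 TPM with MTOB, a log2 fold change of 0.22 ± 0.03 by limma (adjusted p = 0.000168). The call of Zyx was lost without vehicle replicate 1 or 3 or MTOB replicate 1 or 2 (adjusted p between 0.05 and 0.131). Of 20 proteoglycan and glycosaminoglycan genes 3 were called higher, 7 rose and 1, B4galt7, fell. Among those called was Sdc4, the heparan sulfate proteoglycan syndecan-4, at 23.7, 20.03 and 22.8 TPM in vehicle and 57.1, 60.9 and 59.98 TPM with MTOB. Itga5, the fibronectin receptor subunit, was called higher at a log2 fold change of 0.84 ± 0.08 by limma (adjusted p = 3.71e-06), and Itga4 and Itgb5 fell at -0.53 and -0.42.

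Mitotic genes fell together by small amounts. Of 23 genes of mitosis and G2-M none was called, 17 fell and none rose on the adjusted p, and 21 lay below the unadjusted p of 0.05, all lower. Among all tested genes 3.46% fell, and 18.4% lay below the unadjusted p of 0.05 in either direction. Their median log2 fold change was -0.28, and their summed level was 3866 to 3901 TPM in vehicle and 3232 to 3257.5 TPM with MTOB. Mki67, the proliferation antigen Ki-67, lay at 209, 195 and 199.9 TPM in vehicle and 145, 136 and 149 TPM with MTOB, a log2 fold change of -0.49 ± 0.09 by limma (adjusted p = 0.00276). Cdc20, an activator of the anaphase-promoting complex, lay at 169, 168 and 169.8 TPM in vehicle and 129.9, 128 and 128 TPM with MTOB, a log2 fold change of -0.39 ± 0.04 by limma (adjusted p = 6.89e-06). Plk1, a mitotic kinase, lay at 127, 124 and 132 TPM in vehicle and 99.7, 100.2 and 101 TPM with MTOB, a log2 fold change of -0.34 ± 0.04 by limma (adjusted p = 0.000144). In all 3 genes every MTOB sample lay below every vehicle sample, as for 12% of all tested genes. Of 24 DNA replication and G1-S genes 1 rose and none fell. The cell cycle inhibitor Cdkn1a was called higher at a log2 fold change of 0.68 ± 0.08 by limma (adjusted p = 6.52e-05), Gadd45b, a stress gene, at one of 1.23 that was 1.52 with a pseudocount of 0.1 and 0.68 with one of 5, and Cdk6, a G1 kinase, at one of 0.91. The calls of Gadd45b and Cdk6 were lost when limma was fitted to the 6 samples alone (adjusted p = 0.0585 and 0.0622).

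**Figure D3:**
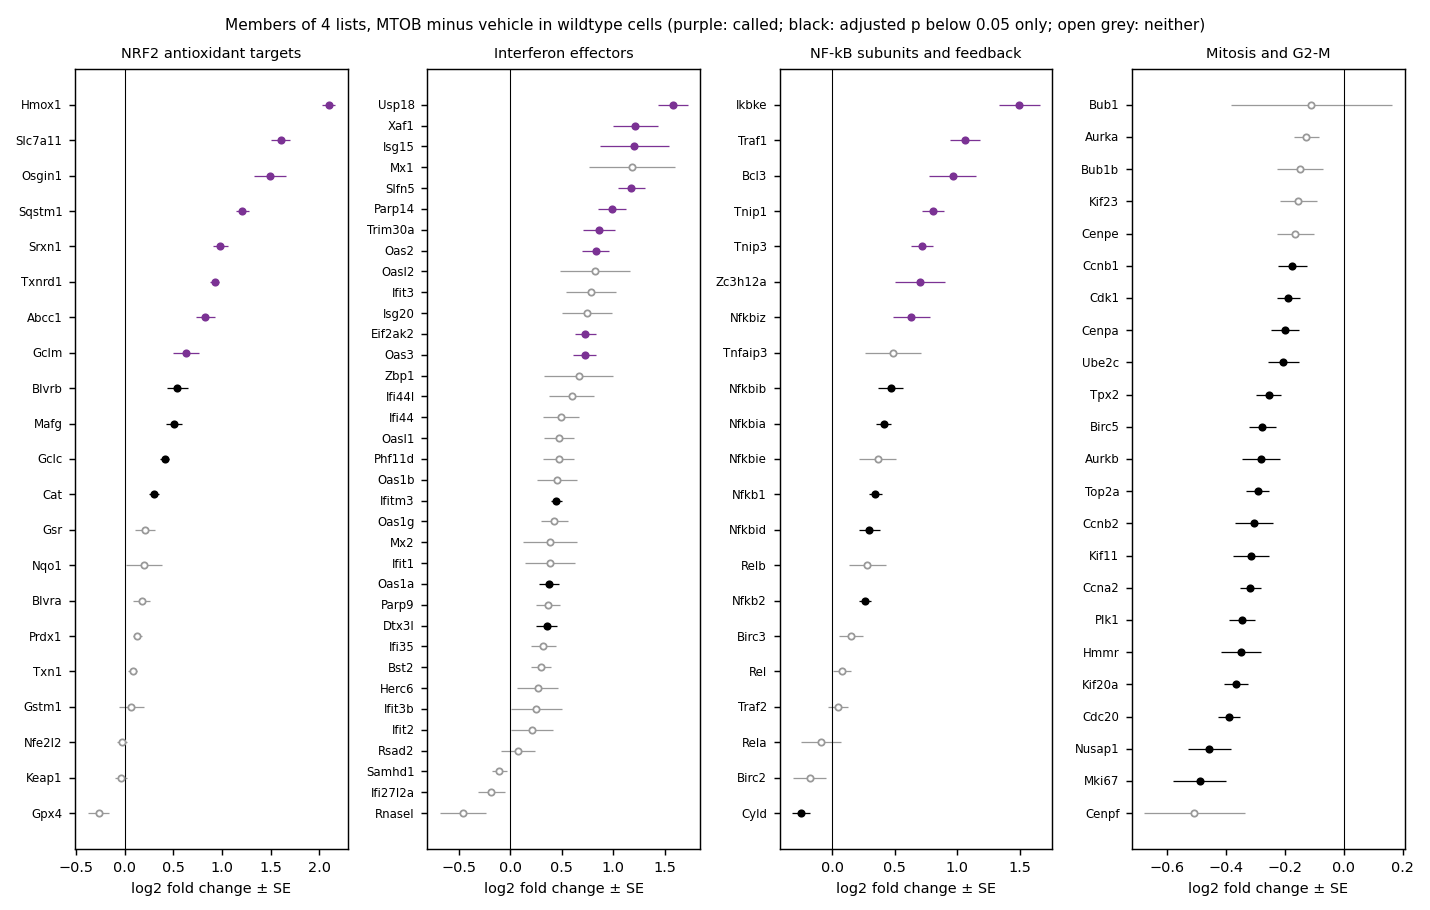
Log2 fold change with SE (MTOB minus vehicle in wildtype cells) of the tested members of 4 lists, in purple where called, in black where only the adjusted p was below 0.05, and in open grey otherwise. The members of the mitosis list all lie left of 0 and none was called, while 8 of 21 NRF2, 9 of 35 interferon and 7 of 21 NF-kB genes were called, all to the right. Of all tested genes 1.56% were called higher.

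The pathway that produces MTOB in the cell held no called gene. Of all tested genes 1.56% were called higher and 0.452% lower, so that a list of this size may hold none. Of 19 genes of methionine salvage and the methionine cycle none was called, and on the adjusted p Adi1, the dioxygenase that produces MTOB, fell with a log2 fold change of -0.21 ± 0.06 by limma (adjusted p = 0.0389) while none rose. The unadjusted p was below 0.05 for 4 of these genes, against 18.4% of all tested genes. None of the 4 D2-hydroxyacid dehydrogenase genes and none of 16 genes of CTBP partner proteins rose or fell with limma, and at an unadjusted p below 0.05 there were 0 and 3, which for the partners is near the share over all tested genes. Smox, spermine oxidase, was called higher among 14 polyamine genes, at a log2 fold change of 0.76, and Odc1, ornithine decarboxylase, lay at 464, 489 and 477 TPM in vehicle and 722, 719 and 699 TPM with MTOB. Of 14 genes of branched-chain amino and keto acid catabolism none was called, 3 fell and 1 rose, with Bckdha and Mccc2 at -0.49 and -0.50.

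Stress and bulk metabolic programmes showed few calls, as did the tested genes as a whole, where 1.56% were called higher and 0.452% lower. None of 22 genes of the ATF4 response was called and 5 rose, including Asns at a log2 fold change of 0.26 and Atf4 at 0.22. Of 16 cytosolic heat shock chaperones none rose or fell with limma, and 3 lay below the unadjusted p of 0.05, near the 18.4% of all tested genes. Among 18 genes of the ER unfolded protein response none was called, 5 fell and 1 rose. Of 20 HIF targets Bhlhe40 alone was called, lower, and this call was lost without vehicle replicate 3, where the change stayed below 1.5-fold at a log2 fold change of -0.52. Of 24 cholesterol synthesis genes none was called and 4 fell. At an unadjusted p below 0.05 lay 12 of the ATF4 genes, 9 of the unfolded protein response and 14 of cholesterol synthesis, against 18.4% of all tested genes. The median log2 fold changes of these 3 lists were 0.24, -0.06 and -0.17, so that they shifted by small amounts with no call. Neither glycolysis (19 genes), the respiratory chain (25), translation elongation (12) nor MHC class I presentation (20) had a called gene, and of the 13 MHC class II genes only Cd40 was called. At an unadjusted p below 0.05 the 4 lists held 5, 4, 1 and 6 genes, where 18.4% of all tested genes did so.

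**Figure D4:**
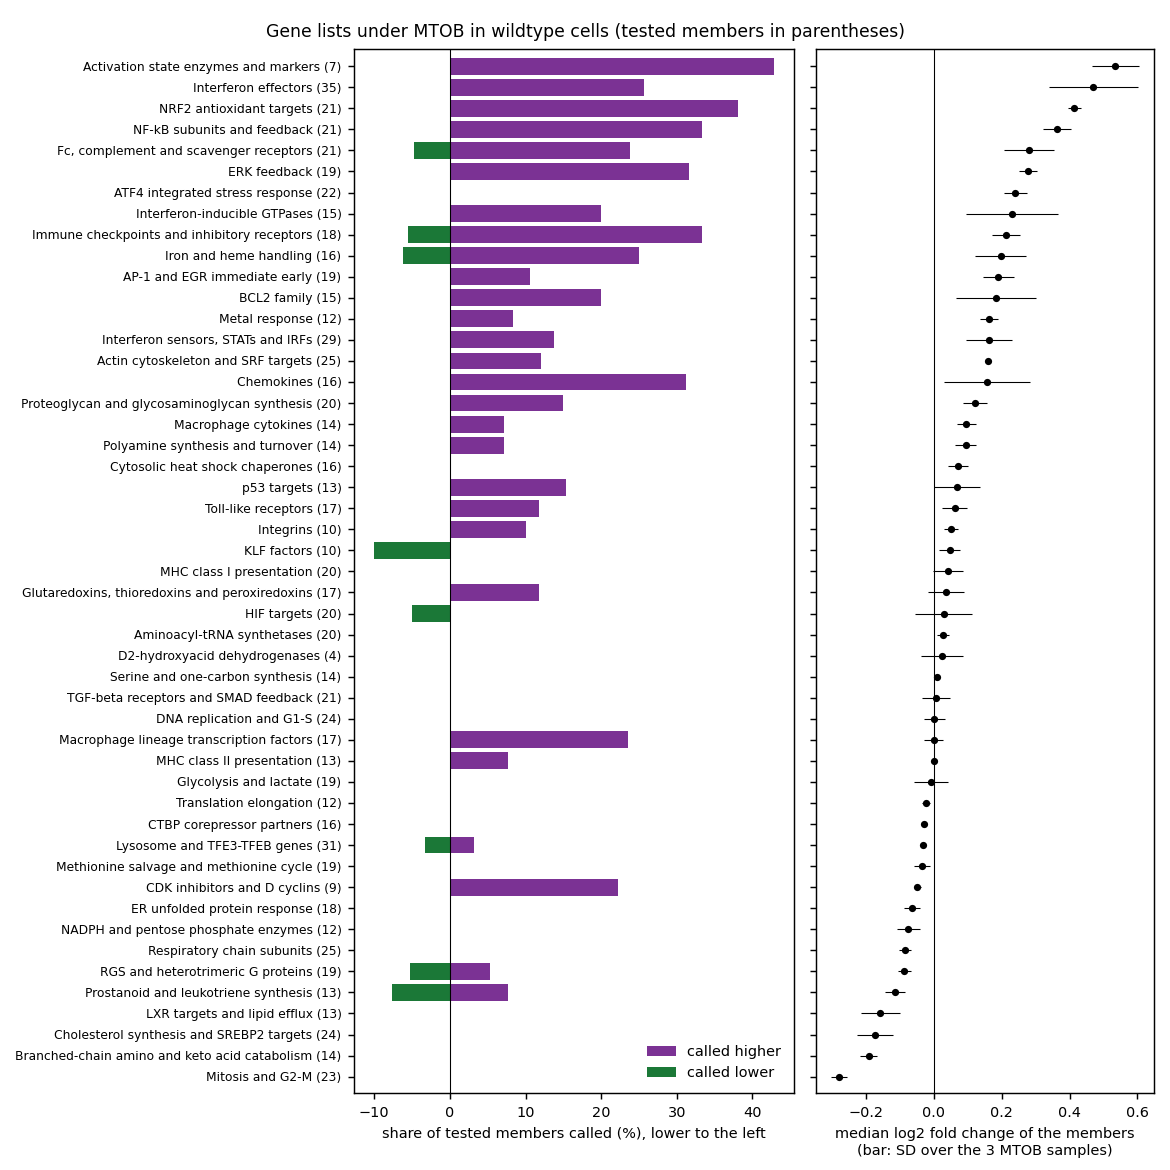
Share of the tested members called higher (purple, to the right) and lower (green, to the left) in each of 49 gene lists, and the median log2 fold change of the members with the SD over the 3 MTOB samples. NRF2 targets, interferon effectors and NF-kB genes have medians of 0.41, 0.47 and 0.36, and mitotic genes have -0.28.

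Some genes called higher were next to each other among the tested genes of a chromosome. Among them were Lilr4b and Lilrb4a, Ccl3 and Ccl4, Ccl5 and Ccl9, Clec4d and Clec4e, Ltb and Tnf, and Oas2 and Oas3. Where genes overlap, the library kit does not keep the strand, and reads cannot be assigned to either strand.

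The dKO cells were used to see how far the MTOB response depends on CTBPs. In dKO vehicle samples Ctbp1 lay at 25.1 ± 0.638 TPM and Ctbp2 at 75.9 ± 3.13 TPM (mean ± SD, n = 3), so that most of the Ctbp2 transcript level of wildtype cells remained. RNA does not show whether the protein was lost, and the paper reports the loss of both proteins by western blot. In dKO cells 189 genes were called higher (1.15%) and 78 lower (0.476%) with MTOB. Of the 329 genes called in wildtype cells 180 passed the adjusted p in dKO cells in the same direction (where 3.04% of all tested genes rose and 3.54% fell) and 131 were called in the same direction. The sign was the same in dKO cells for 310 of the 329. The share of equal sign over all tested genes was not taken, so that the count of 310 cannot be weighed. The effect itself differed between genotypes for 15 genes at an adjusted p below 0.05 (0.0916% of the tested genes), 14 of them with the more positive effect in wildtype cells, and for 1128 at an unadjusted p below 0.05. The 15 include Pcdhgc3, which had a mean of 0 TPM in both the dKO vehicle and the dKO MTOB samples, so that no MTOB effect could be measured there. Without the variance trend the count of 15 was 6. It lay between 7 and 20 when 1 library was left out, with 7 without dKO vehicle replicate 3, 9 without dKO MTOB replicate 1 and 8 without wildtype vehicle replicate 1, wildtype MTOB replicate 1, dKO vehicle replicate 1 or dKO MTOB replicate 2. Of the 15 genes, 10 were also called in wildtype cells. Among these 10 the difference of Cpd, Abr, Pou2f2 and Marcksl1 passed the test under each of the 21 alternatives, and that of Myo1d, Lyn, Ets2, Ptgs1, Bmf and Cxcl16 was lost under 11 to 16 of them. The log2 fold change of Marcksl1 was 2.18 in wildtype and 1.51 in dKO cells, which are 0.68 ± 0.09 by limma (adjusted p = 0.00885) apart, and its vehicle level was 119 ± 4.55 TPM in dKO cells (mean ± SD, n = 3), above every wildtype vehicle sample. That of Pou2f2 was 2.00 and 1.38, or 0.62 ± 0.08 by limma (adjusted p = 0.00866) apart. That of Cpd was 1.76 and 1.19, or 0.57 ± 0.06 by limma (adjusted p = 0.0011) apart. The response of these genes was present in both genotypes and was smaller in dKO cells. The log2 fold change of Bmf was 1.56 in wildtype cells and 0.48 in dKO cells, where its vehicle level was already 14.6 ± 1.67 TPM (mean ± SD, n = 3), above the wildtype MTOB mean of 9.24 TPM. Ptgs1 fell by more in wildtype cells, and both effects were -0.61 ± 0.10 by limma (adjusted p = 0.0302) apart, while its vehicle level was 144 ± 3.87 TPM in dKO cells (mean ± SD, n = 3).

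Leading genes outside those 10 gave no passing difference, which follows from how the 10 were taken. Hmox1 had log2 fold changes of 2.10 in wildtype and 2.24 in dKO cells, and Ranbp3l of -1.50 and -1.53. Adgre1 had 1.79 and 0.46, and the 1.33 ± 0.25 by limma (adjusted p = 0.0718) between them did not pass the test. The median log2 fold change was 0.41 in wildtype and 0.48 in dKO cells for the NRF2 list, 0.36 and 0.53 for the NF-kB list, -0.28 and -0.25 for the mitosis list, and 0.47 and 0.20 for the interferon effectors. No member of these 4 lists passed the test of the difference with limma, and the difference of the medians was not tested. Of the interferon effectors 9 were called higher in wildtype and 2 in dKO cells, where 1.56% and 1.15% of all tested genes were.

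**Figure D5:**
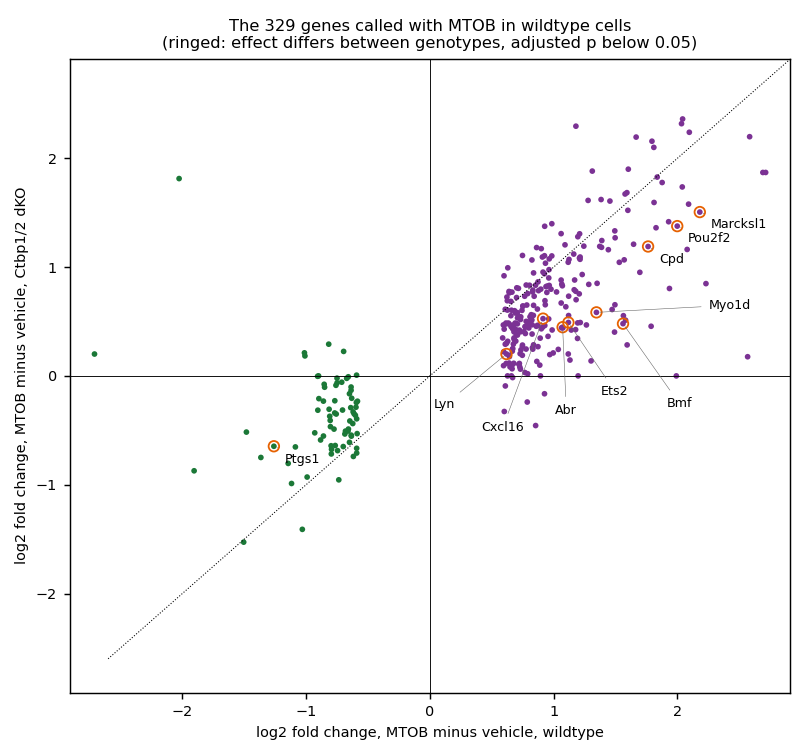
Log2 fold change with MTOB in dKO cells against that in wildtype cells for the 329 genes called in wildtype cells, in purple where called higher and green where called lower, with a dotted line of equal change. Rings mark the 10 genes whose effect differed between genotypes. In the quadrants of equal sign lie 310 of the 329 points, and the same share over all tested genes was not taken.

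4-Cl-HIPP was given at 0.25 mM, a different dose from the 1.5 mM of MTOB, and both share the vehicle samples, so that values are set side by side without a comparison. With 4-Cl-HIPP 18 genes were called higher (0.11%) and 5 lower (0.0305%) in wildtype cells. Of the 329 genes called with MTOB 7 were also called with 4-Cl-HIPP. The log2 fold change with MTOB and with 4-Cl-HIPP was 2.10 and -0.02 for Hmox1, 2.18 and 0.09 for Marcksl1, 1.58 and -0.46 for Usp18, and -1.26 and 0.06 for Ptgs1. It was 1.76 and 0.59 for Cpd, which was also called with 4-Cl-HIPP. For Cxcl16, which rose with 4-Cl-HIPP without reaching 1.5-fold, it was 0.91 and 0.38.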

How the data were processed

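RNA from J774.1 cells in 6 groups of 3 biological replicates was sequenced as paired ends with an unstranded kit, with poly(A) selection per the labels and rRNA depletion per the study's methods. The authors quantified transcripts with Salmon 1.9.0 on Gencode M28 (GRCm39), summarised them with tximport and deposited scaled TPM per gene and sample. The authors also deposited 1 mean normalized count per gene from DESeq2 1.44.0, a signal over all samples that was used here only to filter genes and to model the variance trend. The deposited fold changes and adjusted p-values of the authors' comparisons were not used. TPM keeps no depth, so no counting error can be given.

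The 16383 of 18204 genes above the 10th percentile (0.222) of the mean normalized count were tested on log2(TPM + 1) with limma 3.58.1 in R 4.3.3, with 6 group means over all 18 samples, empirical Bayes moderation with a trend, and Benjamini-Hochberg adjustment. The fold changes of low genes are understated on this scale. The fit was also run on simulated data with known changes. Named genes were the 15 called higher and 10 called lower with the largest changes at a mean of 5 TPM or more, without overlap between groups and without clone names, the 8 called genes with the largest TPM difference, members of 49 lists, genes called in wildtype cells whose effect differed between genotypes, and Ctbp1 and Ctbp2. Members and lists were chosen with earlier results of these data known. Alternatives were other pseudocounts (0.1 and 5), filters, scaling, a fit on the compared groups alone, no variance trend, a replicate block and the omission of each library. Promoter sequences are RefSeq windows on GRCm38.p6 and positions of genes are from Gencode on GRCm39. Some genes that these rules name are not reported here.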

Additional observations from a re-analysis of the deposited data

Results flagged for a closer look

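The effect of MTOB differed between wildtype and dKO cells, by the interaction test in limma at an adjusted p below 0.05, for 10 genes that were called in wildtype cells. The log2 fold change in wildtype cells minus that in dKO cells was 0.57 for Cpd, 0.62 for Abr, 0.62 for Pou2f2, 0.68 for Marcksl1, 0.76 for Myo1d, 0.42 for Lyn, 0.63 for Ets2, 1.08 for Bmf and 0.39 for Cxcl16, all higher in both genotypes. It was -0.61 for Ptgs1, which fell in both genotypes. Abr had a mean of 66.1 ± 3.45 TPM (SD, n = 3) in dKO vehicle and 90.4 ± 3.32 TPM in dKO MTOB samples, against 59.4, 59.4 and 62.3 TPM in the wildtype vehicle and 135.4, 122.0 and 127.1 TPM in the wildtype MTOB samples. Myo1d, an unconventional myosin, had 24.3 ± 2.09 TPM and 36.9 ± 2.85 TPM in dKO cells, against 12.3, 12.1 and 12.6 TPM and 36.6, 32.8 and 29.6 TPM in wildtype cells, so that the genotypes were farther apart in vehicle than with MTOB. Lyn, a Src family kinase, and Cxcl16 started at 62.5 ± 1.79 TPM and 142.2 ± 2.61 TPM in dKO vehicle samples. Ets2 had 14.8 ± 1.46 TPM in dKO vehicle samples, below every wildtype sample. The vehicle levels of the genotypes also differed for Ptgs1, Bmf, Myo1d, Ets2, Cxcl16 and Marcksl1. In dKO cells the vehicle level was lower for Ets2 and higher for the others named. The part of the vehicle levels in the differences of effect was not tested.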

How the results depend on the processing

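The count of 329 called genes (255 higher, 74 lower) fell to 185 (167 higher, 18 lower) with a pseudocount of 5, all of them among the 329, and the lower calls fell to 42 when only the compared groups were fitted (232 in all). The other alternatives gave 301 to 378 called genes. Leaving out 1 library gave 293 to 315 called genes, 227 to 249 higher and 59 to 70 lower. The 15 genes whose effect differed between genotypes became 6 without the variance trend, and 7 to 20 when 1 library was left out, with 8 without wildtype vehicle replicate 1, wildtype MTOB replicate 1, dKO vehicle replicate 1 or dKO MTOB replicate 2, 9 without dKO MTOB replicate 1 and 7 without dKO vehicle replicate 3. The causes were not tested. With the replicate number as a block there were 319 called genes and 8 differing between genotypes, and with a block within genotype 301 and 6. Same-numbered samples deviated together at correlations of 0.030, 0.023 and -0.056, and not every sample correlated best with its own number, so that the numbers were not taken to pair the samples. The near-zero log2 fold change of Ctbp2 ranged from -0.023 to 0.047 when 1 library was left out and was negative without wildtype vehicle replicate 1 (-0.0229) and without wildtype MTOB replicate 3 (-8.46e-06).

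Of 119 named genes 27 lost their call or changed sign when 1 library was left out, 29 lost it with a pseudocount of 5, 24 when only the compared groups were fitted, 11 with a block within genotype, 6 with the replicate block, 4 each with a pseudocount of 0.1 and without the variance trend, 3 without a filter on low values and none with median ratio scaling. With a pseudocount of 5 these were Arg2, Bcl3, Bhlhe40, C3ar1, Cd36, Cebpa, Dhx58, Dusp2, Dusp5, Fcgr3, Gch1, Gpnmb, Havcr2, Hfe, Igtp, Irgm2, Klf11, Lair1, Maff, Msh5, Nfil3, Nfkbiz, Phlda1, Rgs16, Slc48a1, St6gal1, Tlr9, Xylt1 and Zc3h12a. With the compared groups alone they were Alas1, Bcl3, Bhlhe40, Cd36, Cdk6, Cebpa, Crnde, Dhx58, Dusp2, Dusp5, Fcgr3, Gadd45b, Gclm, Gemin4, Gpnmb, Havcr2, Igtp, Isg15, Lair1, Nfil3, Nfkbiz, Phlda1, St6gal1 and Zyx. The log2 fold change of 35 moved by more than 1.5 times under some alternative, most of them below 5 TPM. The medians of some lists depended on the alternative, where the filters also change which members are tested. Over all alternatives they ranged from 0.03 to 0.91 for chemokines and 0.06 to 0.77 for interferon-inducible GTPases. For inhibitory receptors they ranged from 0.08 to 0.76 and for activation enzymes from 0.13 to 1.76. The ranges were 0.39 to 0.52 for NRF2 targets and -0.29 to -0.26 for mitosis. The depth behind each TPM value is unknown, so that a missed change at a low level cannot be told from an absent one.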

Other observations

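Selenoproteins, a set chosen after their values were seen, changed unevenly. Of 17 tested 4 were called higher and none lower, 5 rose and 2 fell on the adjusted p of limma, and the median log2 fold change was 0.04. Among all tested genes 1.56% were called higher, 3.8% rose and 3.46% fell. Selenow lay at 29.8, 28.5 and 30.04 TPM in vehicle and 91.98, 91.6 and 85.9 TPM with MTOB, a log2 fold change of 1.58 in wildtype and 1.67 in dKO cells. Selenoh lay at 82.8, 69.3 and 74.9 TPM in vehicle and 123.8, 127.1 and 131.6 TPM with MTOB. The others called were Txnrd1 and Gpx1. Sephs2, which makes the selenium donor selenophosphate, went the other way, from 215.7, 219.1 and 217.0 TPM to 145.1, 152.1 and 147.0 TPM, a log2 fold change of -0.55 in wildtype and -0.59 in dKO cells, and Txnrd2, the mitochondrial thioredoxin reductase, fell at -0.47.

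Lysosomal and metal transport genes moved in both directions. Of 31 lysosomal genes 7 rose and 4 fell, with 1 called in each direction, where 3.8% of all tested genes rose and 3.46% fell. The protease Ctsl was called at 0.64 ± 0.07 by limma (adjusted p = 4.85e-05) on the log2 scale and Gpnmb, a glycoprotein of macrophage lysosomes, was called lower at -0.79, a log2 fold change that was -0.97 with a pseudocount of 0.1 and -0.45 with one of 5. Its call was lost without vehicle replicate 1 or 2 or MTOB replicate 1 or 3 (adjusted p between 0.0769 and 0.166), with either of these pseudocounts, and when limma was fitted to the 6 samples alone (adjusted p = 0.198). The transcription factors Tfe3 and Mitf rose by 0.47 and 0.46, and Tfeb at -0.10 did not pass. Of 12 metal response genes Slc30a4, a zinc exporter, was called at 0.75 ± 0.09 by limma (adjusted p = 4.39e-05), Slc30a1 and Slc39a1 rose by 0.50 and 0.49, and the metallothioneins Mt1 and Mt2 at 0.08 and 0.41 did not pass. Both G protein regulators that were called went opposite ways, Rgs16 at 1.18 (a log2 fold change that was 2.41 with a pseudocount of 0.1 and 0.40 with one of 5) and Rgs2 at -1.37, as did both cyclooxygenases, Ptgs2 at 1.79 and Ptgs1 at -1.26.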
